A study of Mus musculus with 12 samples.

Results

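The transcripts described here rose in cultured mouse fibroblasts moved from 35 °C to 38.5 °C, in RNA-seq and in ribosome footprints of every replicate number. They were chosen on these measurements. Counts were turned into CPM, the count of an ID scaled to a common library total of 1000000 counts, and the difference log2(CPM + 0.5) of the warm library minus the 35 °C library was taken within each of 3 replicate numbers and each of 2 assays. A transcript ID entered if all 6 differences were at least 0.4 and if it held at least 20 counts in each of the 6 warm libraries, a minimum called the floor below. Of 46419 IDs with a listed length, 22027 passed the floor and 101 met the rule. Neighbouring IDs with near-identical counts, which may be isoforms receiving the same reads, were joined into groups, and each group is represented by its member ID with the most counts. The 101 IDs formed 70 such groups, 0.476% of the 14717 groups past the floor. Every count and median of the 6 differences below describes values that the choice had used, and none of them is a test.

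The cells were confluent wild-type C57BL/6 mouse embryonic fibroblasts, which are connective-tissue cells grown from embryos. All were synchronised with Dex. In 2 groups, WTS, the warm step from 35 °C to 38.5 °C, began 24 h after Dex and lasted 2 h, and in the other 2 groups the cells stayed at 35 °C. Each treatment was measured by RNA-seq and by ribosome profiling, with 3 libraries per group and 12 in all. When the 35 °C cells were harvested is not in the labels, so the warm step and a later harvest cannot be told apart. Total counts lay between 8686742 and 12212227 in RNA and between 8449802 and 82560281 in footprints. The footprint libraries numbered 1 were the deepest of their groups, with 23393113 counts at 35 °C and 82560281 after warming. The series is described as a set of independent experiments, but no label ties a replicate number to a culture or day.

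In ribosome profiling, RNase digests the mRNA that ribosomes do not cover, and the protected fragments are sequenced, so footprints of a transcript follow both how much mRNA there is and how many ribosomes sit on it. RNA-seq gives the amount of RNA alone. In mammalian cells, warming is known to activate heat shock factor, which switches on genes for chaperones, the proteins that help others fold, and body temperature rhythms are known to set the phase of circadian clocks in peripheral cells. Whether the transcripts here belong to either response could not be asked. The files give transcript IDs without gene names, and a search of 2 mouse gene tables found 0 of these IDs. Fibroblast markers and gene lists were therefore not evaluated, no sequence is shown, and only 2 IDs are printed. The other groups are called by their place, from 1 to 70, in the order of the mean of their 6 differences, and by their listed length, whose unit is not stated in the sources used here.

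With the treatments exchanged in 1 replicate number, in both assays at once, no ID met the rule. The exchange was made for numbers 1, 2 and 3 in turn, with the floor moved to the libraries that took the place of the warm ones, and each gave 0 IDs against 101. In these exchanges the largest value that the smallest of the 6 differences reached in any ID was 0.24, 0.25 and 0.29. The members just inside the limit were group 47, with a smallest difference of 0.402, group 53, also at 0.402, and group 66, at 0.406. The groups just outside reached 0.390, 0.388 and 0.384. Of the 70 groups, 19 had a smallest difference under 0.45, and 20 further groups had one between 0.35 and 0.4, so the limit falls inside a continuous range of values. With library totals scaled by TMM, an edgeR factor that balances the bulk of transcripts, 57 of the 70 groups met the rule and no other group did. A group counts here if any of its IDs met the rule. The representative ID had a difference under 0.4 in 14 groups. In all 14 this was so in number 1, and in 1 of them also in number 2 or 3.

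The ID uc009nsg.3, of listed length 539, stood first. In RNA its level was 8.62, 7.14 and 6.05 CPM in numbers 1, 2 and 3 at 35 °C and 28.0, 24.2 and 27.4 CPM after warming. In footprints it was at 3.42, 3.91 and 5.62 CPM at 35 °C and at 19.9, 26.0 and 27.6 CPM after warming. The warm libraries lay far above those at 35 °C in both assays, with no overlap. The differences were 1.64, 1.69 and 2.09 in RNA, a mean of 1.81 ± 0.25 (SD, n = 3), and 2.38, 2.59 and 2.20 in footprints, a mean of 2.39 ± 0.20 (SD, n = 3). This group holds 4 IDs, all members, and its RNA counts at 35 °C were 69 to 85 per library.

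Groups 2 and 3, of listed lengths 289 and 225, lay 2 rows apart in the files and moved alike. Group 2 held 12.1, 13.5 and 12 CPM of RNA at 35 °C and 29.4, 27.9 and 26.4 CPM after warming. Its footprints went from 33.3, 18.5 and 20.7 CPM to 97.4, 72.4 and 75.4 CPM, with number 1 the highest in each treatment. The mean difference was 1.12 ± 0.12 in RNA and 1.77 ± 0.21 in footprints (SD, n = 3). Group 3 gave 1.05 ± 0.32 and 1.68 ± 0.27 (SD, n = 3). In both, each warm library exceeded every 35 °C library, and the footprint difference exceeded the RNA difference in all 3 numbers.

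Groups 4 and 5, also close together in the files, roughly doubled in level. Group 4, of listed length 656, went from 22.8, 16.8 and 22.1 to 47.4, 37.5 and 38.2 CPM in RNA and from 17.6, 13.0 and 15.1 to 47.9, 31.5 and 33.2 CPM in footprints. Group 5, of listed length 1037, had mean differences of 1.01 ± 0.13 in RNA and 1.14 ± 0.16 in footprints (SD, n = 3). No 35 °C library reached a warm one in either group. The neighbourhood of these 2 also held groups 19 and 23, of listed lengths 172 and 162, so 4 of the 70 groups came from 1 stretch of rows.

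Group 6, of listed length 338, was the first in order whose mean difference was larger in RNA than in footprints. Its RNA rose from 6.49, 2.8 and 3.86 to 12.3, 9.48 and 8.19 CPM, and its footprints from 5.73, 10.4 and 9.84 to 14.4, 18.8 and 16.8 CPM. Number 1 was the highest in RNA and the lowest in footprints of each treatment, yet the groups of libraries did not overlap. Group 7, of listed length 1772, moved from 11.8, 6.59 and 7.28 to 17.5, 15.8 and 15.6 CPM in RNA and from 6.88, 10.3 and 8.13 to 15.3, 20.3 and 20.1 CPM in footprints. Its RNA difference was 0.55 in number 1 against 1.20 and 1.05 in the others.

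**Figure D1:**
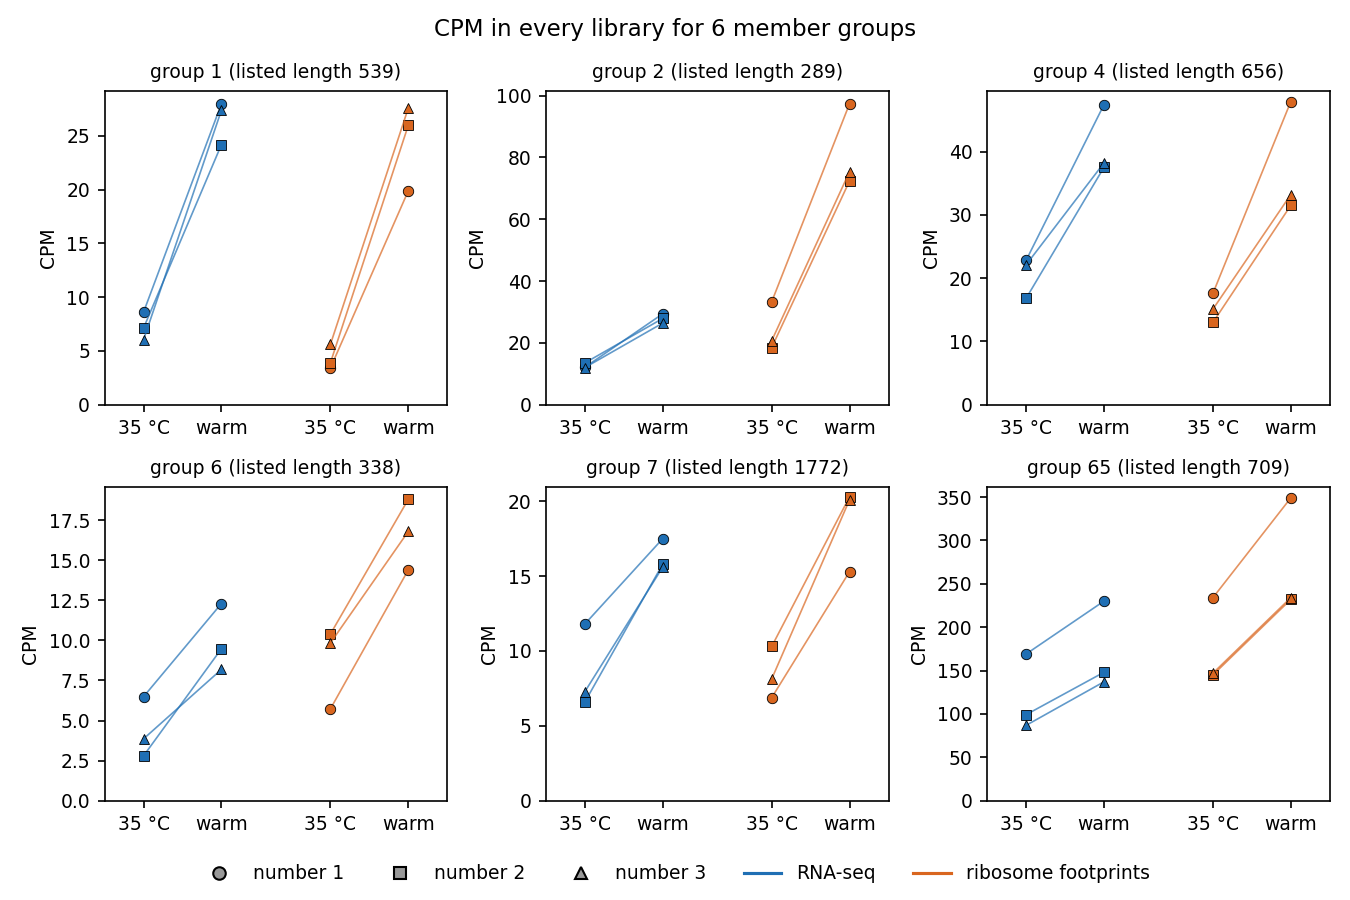
CPM in every library of 6 member groups: the first group of each of the first 5 neighbourhoods of rows in the order, and group 65, the most abundant. Each line joins the 35 °C and the warm library of 1 replicate number, blue for RNA-seq and orange for footprints, on axes that start at 0; all 36 lines rise, and in group 65 number 1 lies above the other numbers.

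The member with the highest mean CPM over the 12 libraries, the ID uc007zyt.2 of listed length 709, stood at place 65. It held 169, 99.1 and 86.8 CPM of RNA at 35 °C and 230, 148 and 137 CPM after warming. Its footprints were 234, 145 and 147 CPM at 35 °C and 349, 232 and 234 CPM after warming. Here the treatments overlapped in both assays, because number 1 at 35 °C exceeded the warm libraries of numbers 2 and 3. Within each number the change was moderate and even, at 0.44, 0.58 and 0.66 in RNA and 0.57, 0.68 and 0.67 in footprints. Between 990 and 28778 counts per library stood behind these values.

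Among other well-covered members, the evenness between numbers varied. Group 30, of listed length 388, rose in footprints from 75.5, 73.4 and 78.2 to 134, 136 and 139 CPM, with 3 differences between 0.82 and 0.89, while its RNA differences were 0.74, 0.88 and 0.56. Group 40, of listed length 361, went from 25.6, 27.1 and 25.3 to 43.3, 40.4 and 41.9 CPM in RNA and from 18.2, 18.5 and 19.4 to 32.4, 31.6 and 32.9 CPM in footprints. In group 40 the libraries of 1 treatment lay within a narrow band in both assays, with no overlap between treatments. Per listed length the most abundant member at 35 °C was group 22, the shortest at a listed length of 80, with 40.4 CPM of RNA and 76.6 CPM of footprints per 100 of length. Its footprints went from 34.0, 77.6 and 72.2 to 57.0, 131 and 144 CPM, so that warm number 1 stayed under numbers 2 and 3 at 35 °C although each number rose. The longest member, group 25 at a listed length of 2522, rose from 16.6, 17.1 and 13.6 to 29.1, 29.9 and 32.2 CPM in RNA, with differences of 0.79, 0.79 and 1.21.

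Most of the 70 groups changed less than 2-fold. The mean of the 6 differences ran from 0.54 to 2.10 with a median of 0.75. It was at least 1, a doubling, in 7 groups, between 0.7 and 1 in 37 and under 0.7 in 26. Only groups 1 and 2 reached a difference of 1 in all 6 comparisons. In RNA the medians over the members were 0.75, 0.66 and 0.71 for numbers 1, 2 and 3, and in footprints they were 0.84, 0.74 and 0.70. Over all groups past the floor the corresponding medians in number 1 were 0.06 in RNA and 0.08 in footprints. In numbers 2 and 3 they lay between -0.01 and 0.01. The spread between numbers was ordinary: the median SD of the 3 differences was 0.18 in RNA and 0.17 in footprints among members, and 0.18 in both assays among all groups past the floor. The smallest of the 6 differences was an RNA difference in 43 groups and a footprint difference in 27.

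**Figure D2:**
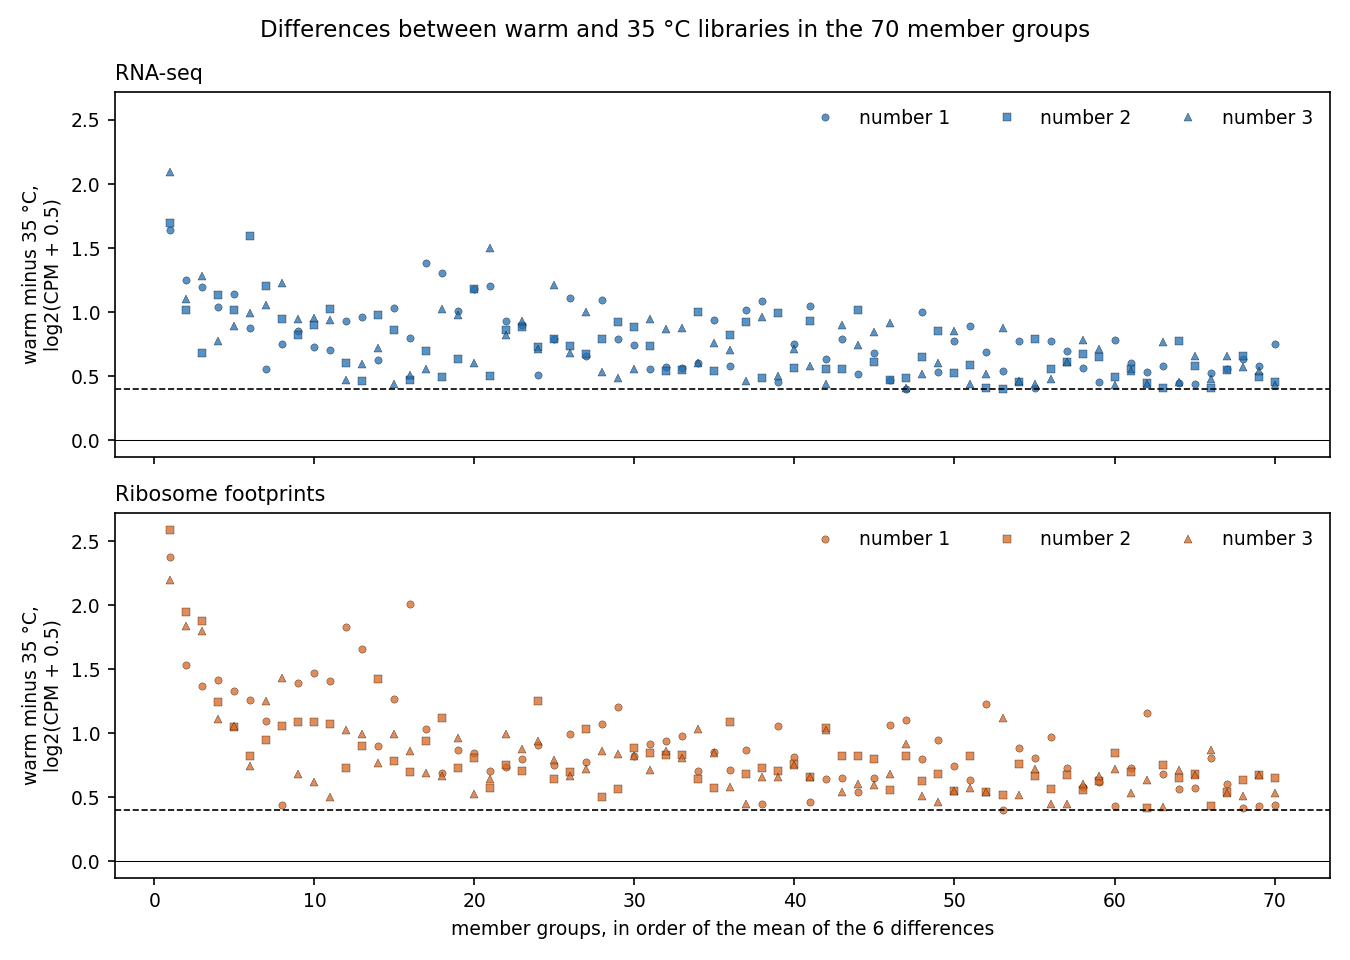
The 6 differences, warm minus 35 °C in log2(CPM + 0.5), of each of the 70 member groups in order of their mean, RNA-seq above and footprints below, with 1 symbol per replicate number. The dashed line is the limit of 0.4 used in the choice; group 1 has the largest of the members' values in all 6 comparisons, and 337 of the 420 points lie under 1.

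Counting error alone was a sizeable part of some differences. The median standard error that Poisson counting gives a member's difference was between 0.17 and 0.19 in RNA and 0.13, 0.20 and 0.17 in footprints of numbers 1, 2 and 3. In 53 of the 70 groups every difference was at least 2 such errors from 0, and 34 of all 420 differences were nearer to 0 than that. Since the floor applied to warm libraries only, 8 groups had a 35 °C library under 20 counts. The lowest count was 5, in footprints of number 2 at 35 °C for group 14, whose footprints went from 2.82, 0.592 and 1.31 to 5.69, 2.43 and 2.57 CPM. These reads have no molecular identifiers that the labels mention, so such errors cover counting only.

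The treatments did not overlap, with all 3 warm libraries above all 3 at 35 °C, in 53 of the 70 groups in RNA and in 45 in footprints. Among the 14717 groups past the floor this was so for 7.07% in RNA and 5.31% in footprints. It held in both assays for 36 of the 70, against 1.35% of all, and 8 groups overlapped in both. The choice used this contrast, and nothing is read from these shares. In some groups number 1 lay apart from the other numbers. Group 56, of listed length 630, was at 10.2, 30.3 and 31.8 CPM of RNA at 35 °C and at 17.8, 44.9 and 44.4 CPM after warming, so its warm number 1 lay below numbers 2 and 3 at 35 °C.

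Number 1 against numbers 2 and 3 is a contrast that the choice of members did not use. It was picked after number 1 had been found apart in these same data, so its adjusted p-values are descriptive. The contrast was fitted with treatment as a covariate in edgeR, and number 1 is 1 library per treatment in each assay. In RNA, 55 of the 101 member IDs (54.5%) differed between number 1 and the others at an adjusted p under 0.05, against 44.2% of all IDs tested. In footprints these were 68 (67.3%) against 52.1%. The IDs tested, 27223 in RNA and 26920 in footprints, outnumber the 22027 past the floor that every member passed. The 101 IDs also include some that share reads within the 70 groups. The sets are thus unlike, and nothing is read from the differences between these shares. In RNA, 27 member IDs were higher and 28 lower in number 1, where 21.7% of all IDs were higher and 22.5% lower. In footprints, 36 were higher and 32 lower, where 25.8% of all IDs were higher and 26.3% lower. The footprint directions depend on the scale, for members and all IDs alike: with total-count scaling, 15 member IDs were called higher in number 1 and 60 lower, where 8.53% of all IDs were higher and 67.3% lower. In RNA, group 17 was lower in number 1 by a log2 value of -1.55 ± 0.20 (SE; edgeR adjusted p = 2.11e-08), and group 36 was higher by 1.23 ± 0.17 (SE; edgeR adjusted p = 1.12e-07). The ID uc007zyt.2 was higher in number 1 by 0.84 ± 0.08 in RNA (SE; edgeR adjusted p = 2.70e-11). An offset of number 1 by more than 1 on the log2 scale was seen in 9 of the 70 groups in RNA and in 7 in footprints, or 12.9% and 10%, against 10.5% and 12.8% of all IDs tested. A culture, a day and a library preparation that number 1 may have shared cannot be told apart here.

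In footprints the members changed somewhat more than in RNA, as a description of values the choice had used. The footprint difference minus the RNA difference was above 0 in all 3 numbers for 18 of the 70 groups and below 0 in all 3 for 7. Over all groups past the floor these shares were 12.8% and 11.8%. The mean of this value over the 3 numbers had a median of 0.08 among members and 0.01 among all groups. It was above 0 in 47 of the 70 (67.1%), against 51.3% of all groups. In numbers 1, 2 and 3 taken singly, the median was 0.12, 0.10 and 0.03 among members. Among all groups it was 0.02, 0.02 and -0.02. The mean over the 3 numbers was 0.5 or more in 7 groups, namely 1, 2, 3, 12, 13, 16 and 47. Group 47, of listed length 1107, is an example with a small change in RNA, from 10.2, 13.0 and 13.0 to 13.7, 18.4 and 17.4 CPM. Its footprints went from 1.92, 4.26 and 5.12 to 4.71, 7.93 and 10.1 CPM, and the footprint difference was larger by 0.70, 0.34 and 0.51. The opposite order, with RNA ahead by 0.2 or more on average, was seen in 6 groups. Group 21, of listed length 313, led these with differences of 1.21, 0.50 and 1.5 in RNA and 0.70, 0.57 and 0.65 in footprints, on 10 to 90 RNA counts per library.

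**Figure D3:**
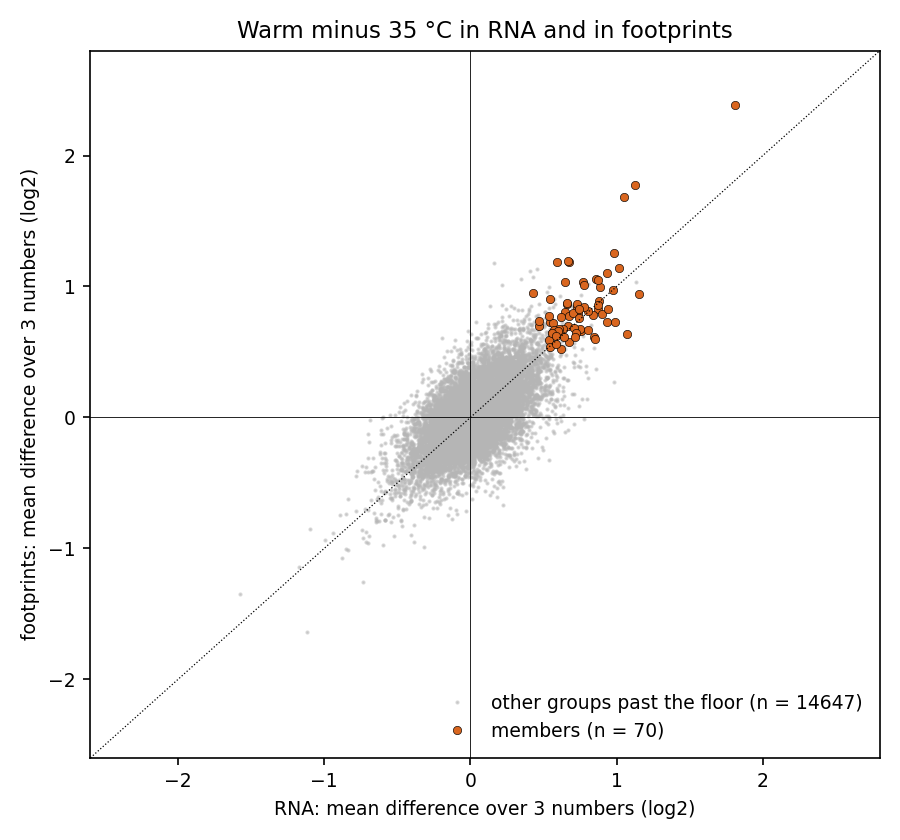
Mean difference over the 3 numbers, warm minus 35 °C in log2(CPM + 0.5), in RNA (horizontal) and footprints (vertical), for the 70 members (orange) and the other groups past the floor (grey). The dotted line marks equal change; the members lie in the upper right, where the rule placed them, with groups 1 to 3 above the line.

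Across the 70 members, the mean RNA and footprint differences correlated with Pearson's r = 0.683, which fell to 0.418 without groups 1 and 2. This is given as a description over groups that share 12 libraries and were chosen on both values.

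Replicate numbers left out of the choice gave values the choice had not used. With the rule applied to numbers 2 and 3 alone, 114 groups were chosen, and in number 1 their median differences were 0.57 in RNA and 0.73 in footprints. Both differences were above 0 in 108 of the 114 (94.7%), against 41.5% of all groups past the floor. With numbers 1 and 3 used, 123 groups were chosen, with medians of 0.49 and 0.67 in number 2. There, both differences were above 0 in 112 (91.1%), against 31.4% of all groups. With numbers 1 and 2 used, 136 groups were chosen, with medians of 0.44 and 0.57 in number 3 and both differences above 0 in 123 (90.4%), against 31.5%. The groups in which both left-out differences also reached 0.4 are, by construction, the 70 members. The 108, 112 and 123 groups with both differences above 0 include these 70, which the full rule chose on the left-out number too. The 70 members were 61.4%, 56.9% and 51.5% of those chosen without number 1, 2 and 3. Of all groups, 3.57%, 2.91% and 2.46% reached 0.4 in both assays of the left-out number. The 70 were the larger part of each chosen set. The medians above the limit of 0.4 in both assays therefore follow from these shares and add nothing to them. The floor still used the warm libraries of all 3 numbers.

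**Figure D4:**
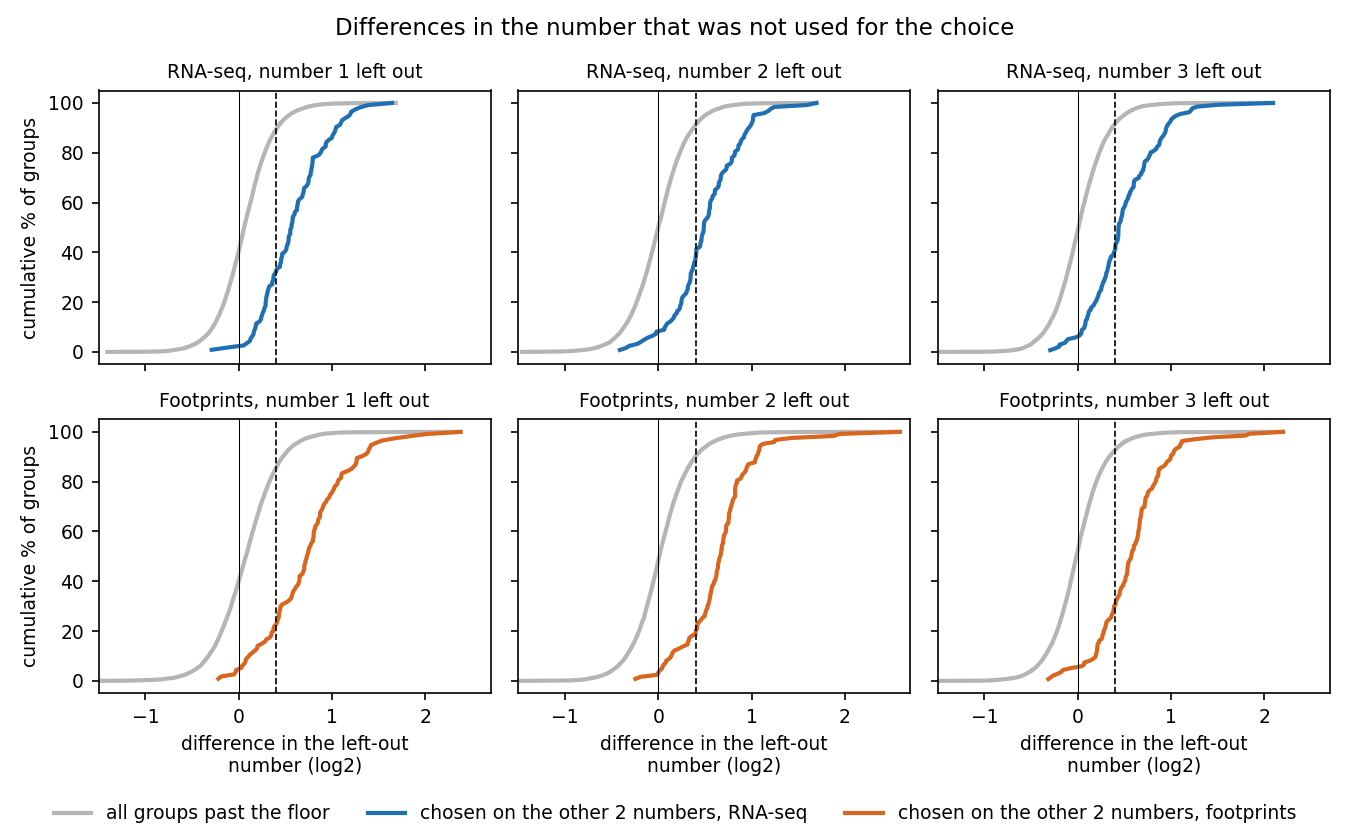
Cumulative share of groups (vertical, in %) by their difference in the left-out replicate number (horizontal, log2), for groups chosen on the other 2 numbers (blue for RNA-seq, orange for footprints) and for all 14717 groups past the floor (grey). The dashed line is at 0.4; the coloured curves lie to the right of the grey ones in all 6 panels, with 114, 123 and 136 groups chosen.

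At 35 °C the members were less abundant than most transcripts past the floor, an order that the rule favours, since a low 35 °C value raises the difference while the floor acts on warm libraries. Per 100 of listed length, their median level was 2.25 CPM in RNA and 1.82 CPM in footprints, against 3.62 and 2.67 CPM over all groups past the floor. In both assays, 49 of the 70 lay under the median of all groups. After warming the medians were 3.70 CPM in RNA and 3.07 CPM in footprints, beside 3.72 and 2.73 CPM over all groups. Without division by length, the medians in RNA and footprints at 35 °C were 10.4 and 8.6 CPM, against 14.6 and 10.9 CPM. There, 44 and 42 of the 70 lay under the median of all groups. After warming these medians were 16.9 and 15.6 CPM, against 14.8 and 11.1 CPM. The log2 ratio of footprint to RNA CPM at 35 °C, with 0.5 added to both, was taken in each number and averaged over the 3 numbers. This average had a median of -0.39 among members and -0.34 over all groups. Without averaging, the order in each of numbers 1, 2 and 3 was the opposite. The medians were -0.50, -0.18 and -0.12 among members and -0.61, -0.22 and -0.19 over all groups, so no direction is read from the ratio. Listed length was also ordinary: its median was 380 among members and 407 over all groups, and 10% of members and 11.1% of all groups had a length of 1000 or more.

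**Figure D5:**
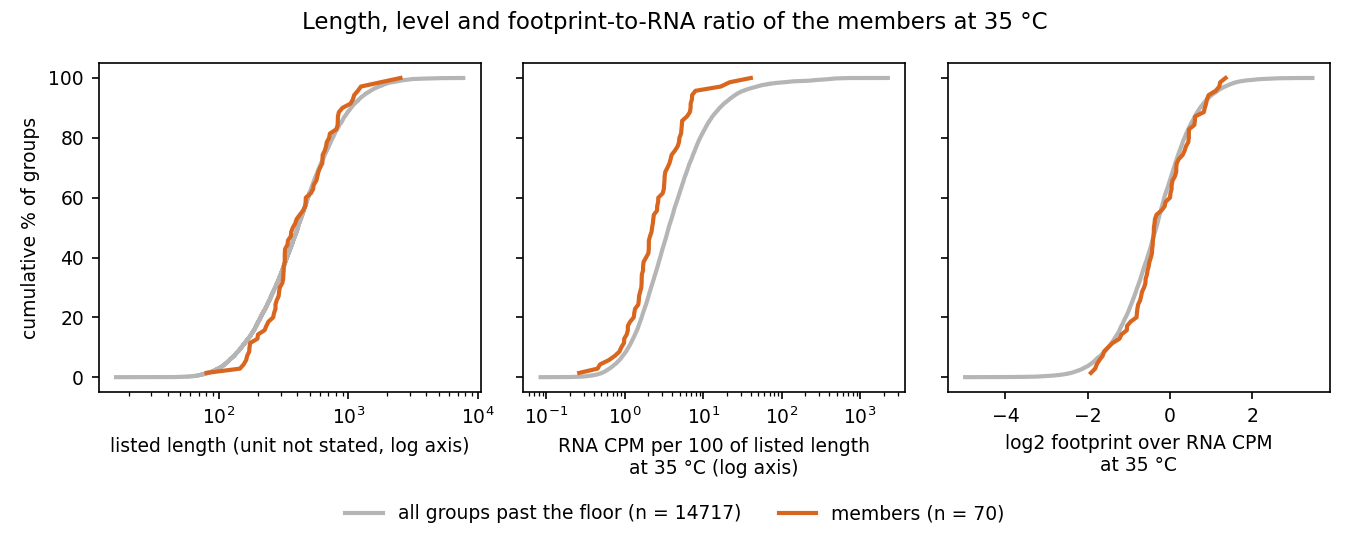
Cumulative share of groups (vertical, in %) by listed length, by RNA CPM per 100 of listed length at 35 °C (both on log axes) and by the log2 ratio of footprint to RNA CPM at 35 °C, for the 70 members (orange) and all 14717 groups past the floor (grey). The level curve of the members is shifted to lower values, with a median of 2.25 against 3.62 CPM, and the other 2 pairs of curves run close together.

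The members made up a small part of each library. With 1 ID per group they held 0.106%, 0.109% and 0.110% of RNA counts at 35 °C and 0.179%, 0.181% and 0.180% after warming. Of footprint counts, they held 0.0875%, 0.0997% and 0.103% in the 35 °C libraries and 0.166%, 0.181% and 0.185% in the warm ones. As these are bulk samples, more RNA per cell and more cells carrying a transcript cannot be told apart.

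Many of the 70 groups lay close to another in the files. They consisted of 49 groups with 1 member ID, 14 with 2, 4 with 3 and 3 with 4, and in 8 groups all member IDs had identical counts in all 12 files. Joined over stretches of rows with gaps of at most 30, the groups formed 51 neighbourhoods. Of these, 15 held more than 1 group and took in 34 of the 70, and 30 groups lay within 5 rows of another. Neighbouring IDs may share reads without having near-identical counts, so values of neighbouring groups may not be independent. In 3 member groups, 4 IDs past the floor did not meet the rule themselves.

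The fits across all IDs, which use the contrast of the choice and so add nothing to it, called few or most members depending on whether the replicate number entered. Blocking on replicate number, edgeR called 95 of the 101 member IDs higher in RNA, where 2.29% of all 27223 IDs tested were called higher. In footprints it called 100, where 3.49% of 26920 were. Without a block it called 0 members in RNA, where 0% of all IDs were called, and 4 in footprints, where 0.0149% were. An unadjusted p under 0.05, in either direction, was seen for 83 and 87 member IDs, and for 4.11% and 6.64% of all IDs. DESeq2 without a block called 24 and 22 member IDs higher, where 0.0955% and 0.149% of all IDs were. The 4 footprint calls were the IDs of group 1. No call without a block was left in footprints when any 1 library other than number 1 at 35 °C was removed, or with total-count scaling.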

How the data were processed

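RNA-seq and ribosome footprint libraries were analysed from the deposited counts of each sample. Per the submitters' processing notes, reads were handled with CASAVA 1.8 and STAR 2.7.0 on mm10. The counting program, the annotation and the filters are not given in the sources used here. From the authors' counts, CPM used the file total, and 17340 of the 63759 IDs, which have no listed length and hold 0 counts, were left out. IDs within 30 rows of each other whose counts plus 1 agreed within 1.25 times in all 12 files, at a mean of at least 10 counts, were joined. Members and lists were chosen with earlier results of these data known. The 2 IDs printed are the member with the largest mean difference and, among the rest, that with the highest mean CPM. Gene lists and cell markers could not be evaluated without gene names.

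Fits across all IDs used edgeR 4.0.16 (quasi-likelihood, TMM, filterByExpr) with Benjamini-Hochberg adjustment and a threshold of 0.05, and DESeq2 1.42.0 as an alternative, in R 4.3.3. They measure the spread between these samples, which may be technical. Same-numbered libraries of the 2 treatments deviated together from their group means. In order of replicate number, the correlations were 0.852, 0.498 and 0.603 in RNA and 0.859, 0.626 and 0.671 in footprints. The replicate number was taken as a pairing on these data, not on the labels. Deviations from a group mean cancel out within the group, so a shared offset of number 1 makes the other numbers deviate together too. The correlations of the other numbers therefore cannot show which of their libraries belong together, and their pairing was not tested. The scripts were tested on simulated data. Other limits, floors, pseudocounts, scalings and joins, and removal of each library, were tried.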

Additional observations from a re-analysis of the deposited data

How the results depend on the processing

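The number of member groups was 70. A limit of 0.3 gave 137, of 0.5 gave 39 and of 1 gave 2, and the rule gave 150 in RNA alone and 257 in footprints alone. Without 1 replicate number it gave 114 to 136, since fewer differences had to pass. Other floors, pseudocounts, scalings and ways of joining IDs gave 51 to 101. With TMM-scaled totals the median RNA difference of number 1 was 0.68 in place of 0.75. With all member IDs counted, the shares of counts were 0.177% and 0.298% in RNA and 0.154% and 0.281% in footprints at 35 °C and after warming, in place of 0.108%, 0.180%, 0.0967% and 0.177%.

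For warming, edgeR without a block called 0 IDs in RNA, where 1119 had an unadjusted p under 0.05, and 8 in footprints. With the replicate block it called 1265 and 1748, of which 95 and 100 were member IDs. DESeq2 without a block called 45, with 24 members, and 74, with 22. Total-count scaling called 0 IDs and 0 members in footprints. Without 1 library the footprint calls were 0 to 8, with 0 to 4 members: they were 0 without any 1 library other than number 1 at 35 °C. Fits with the replicate block but without 1 number, chosen after seeing the data, called 379 to 1202 IDs in RNA and 1660 to 2830 in footprints: without number 1 these were 379 and 2830. Of the 101 member IDs they called 77 to 86 and 94 to 98, all higher. Of all IDs tested in these fits, 0.787% to 2.25% in RNA and 2.89% to 5.7% in footprints were called higher. The cause of the differences between settings was not tested. Depth limits the members with few counts: 28 of the 70 groups had a library under 50 counts.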
